A study of Mus musculus with 27 samples.

Results

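Reg3b, Reg3g and Reg3a, 3 secreted C-type lectins of the intestinal epithelium, and 7 products of Paneth cells (Lyz1, Defa24, Itln1, Mptx2, Ang4, Mmp7 and Pla2g2a) were followed across a dose series of TCDD, the most potent of the dioxins, in the mouse ileum. The 10 genes were taken by their Ensembl identifiers from the 46078 genes listed, all were present in every table, and all passed the filter on low counts. REG3 lectins bind bacterial cell walls and keep bacteria away from the mucosal surface, and their genes are known to be induced by bacterial signals acting through MyD88 and by interleukin 22 acting through STAT3. Paneth cells sit at the base of the crypts of Lieberkühn and release granules of lysozyme, alpha-defensins, phospholipase and other antimicrobial proteins into the crypt lumen. Their maturation depends on Wnt signalling.

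The samples were epithelial scrapings of the distal ileum from 27 male C57BL/6 mice at postnatal day 56, of which 3 received sesame oil as vehicle. The other mice received TCDD, 3 mice per dose, with 4 low doses (0.01 and 0.03 µg/kg, then 0.1 and 0.3 µg/kg) and 4 higher ones (1 and 3 µg/kg, then 10 and 30 µg/kg). Gavage was repeated every 4 d over 28 d. The labels give no genotype beyond the strain, and the groups differed by label in TCDD dose alone. TCDD activates the aryl hydrocarbon receptor (AhR), a ligand-dependent transcription factor, and Cyp1a1 is its best known target. Mice were co-housed, the cage of each mouse is not given in the labels, and an effect of cage was not tested. The question put to these genes was whether their mRNA differed from vehicle at each dose and moved with dose.

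Counts of Cyp1a1 ran from 0 to 3 with vehicle, from 6587 to 8395 at 10 µg/kg and from 14821 to 27996 at 30 µg/kg, so its rise followed the dose labels. Each library held 12.26 to 17.14 M counts. The kit's library indices were used once in 16 mice, from vehicle to 0.3 µg/kg and mouse 41 at 1 µg/kg, and again in the 11 mice of the higher doses, so that for 3, 10 or 30 µg/kg against vehicle the effect of dose cannot be told apart from that of index use. In these scrapings the most abundant markers of goblet cells (Fcgbp) and absorptive enterocytes (Anpep) had medians of 12850 and 10590 CPM, where CPM is TMM-scaled counts per M counts. Pancreatic acinar genes were near 0, with 1 of 9 passing the filter on low counts (Cela1, median 2.1 CPM). Scrapings hold many cell types, and fewer cells of a type cannot be told apart from less mRNA per cell.

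The 3 REG3 genes lie together on chromosome 6 of GRCm38. Reg3b (ENSMUSG00000071356) spans 78370657 to 78373466 on the + strand, Reg3a (ENSMUSG00000079516) spans 78380709 to 78383827 on the + strand, and Reg3g (ENSMUSG00000030017) spans 78466269 to 78468872 on the - strand. No stretch of 50 bases in their transcripts occurred in the transcripts of another gene, so reads can be assigned to each of them. Their promoters are shown because the 3 genes moved together, with those of Lyz1 and Ang4 as 2 Paneth cell products whose ratio is described at 10 µg/kg. The sequences are RefSeq's for GRCm38.p6, from 250 bases before to 50 bases after the annotated start, and capitals mark a match to TTCNNNGAA, the spacing recognised by STAT factors, or to CTTTGAT, recognised by TCF/LEF factors of the Wnt pathway, on either strand.
Reg3b (chr6:78370635-78370934, + strand): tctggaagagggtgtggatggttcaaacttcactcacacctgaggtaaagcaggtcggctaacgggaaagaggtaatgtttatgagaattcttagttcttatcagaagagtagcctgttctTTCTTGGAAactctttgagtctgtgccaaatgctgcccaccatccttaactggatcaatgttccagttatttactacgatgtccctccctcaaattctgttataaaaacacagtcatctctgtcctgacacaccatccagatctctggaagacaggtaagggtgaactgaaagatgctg
Reg3g (chr6:78468825-78469124, - strand): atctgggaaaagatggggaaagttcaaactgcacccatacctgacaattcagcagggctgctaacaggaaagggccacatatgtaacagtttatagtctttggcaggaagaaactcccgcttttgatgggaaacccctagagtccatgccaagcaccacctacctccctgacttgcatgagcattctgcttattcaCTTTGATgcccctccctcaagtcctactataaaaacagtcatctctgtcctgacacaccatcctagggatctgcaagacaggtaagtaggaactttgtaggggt
Reg3a (chr6:78380459-78380758, + strand): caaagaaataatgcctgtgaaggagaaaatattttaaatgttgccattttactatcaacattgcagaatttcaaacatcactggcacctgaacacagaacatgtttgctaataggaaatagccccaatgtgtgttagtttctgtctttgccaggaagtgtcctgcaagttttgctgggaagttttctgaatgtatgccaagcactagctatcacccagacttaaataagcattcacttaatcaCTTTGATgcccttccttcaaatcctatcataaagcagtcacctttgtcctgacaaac
Lyz1 (chr10:117292819-117293118, - strand): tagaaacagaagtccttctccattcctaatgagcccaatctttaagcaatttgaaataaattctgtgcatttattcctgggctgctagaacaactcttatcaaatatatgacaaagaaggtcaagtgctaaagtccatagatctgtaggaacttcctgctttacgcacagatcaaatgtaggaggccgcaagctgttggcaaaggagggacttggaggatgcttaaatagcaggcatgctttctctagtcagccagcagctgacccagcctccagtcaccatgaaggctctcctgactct
Ang4 (chr14:51773541-51773840, - strand): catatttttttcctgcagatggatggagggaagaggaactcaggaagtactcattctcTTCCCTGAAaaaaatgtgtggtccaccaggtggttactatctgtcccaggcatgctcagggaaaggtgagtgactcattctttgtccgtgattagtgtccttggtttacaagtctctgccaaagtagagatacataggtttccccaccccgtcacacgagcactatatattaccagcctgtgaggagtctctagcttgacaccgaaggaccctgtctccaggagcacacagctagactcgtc

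Reg3g and Reg3a each held 1 match to CTTTGAT, which 3.729% of 32851 mouse promoters of this length hold, and Reg3b held 1 match to TTCNNNGAA, held by 8.298% of them. The Ang4 promoter also held 1 match to TTCNNNGAA. The 5 promoters printed had no match to GCGTG, the core of the dioxin response element bound by AhR, which occurs in 32.39% of promoters. Of the members not printed, Mmp7 has 2 overlapping RefSeq promoters. They held a match to CTTTGAT where they overlap, and promoter 2 held a match to GCGTG. The promoters of Itln1 and Mptx2 held no match to any of these motifs. These matches describe the windows and say nothing of binding. The start used is RefSeq's, and for Reg3b it lies inside the gene span given above, as does most of the Reg3b window. The longest run shared by the Reg3b and Reg3g promoters was 29 bases, acagtcatctctgtcctgacacaccatcc, spanning the annotated start of both, and the Reg3g and Reg3a promoters shared the 14 bases tcactttgatgccc around the CTTTGAT match, while the longest run shared by Reg3b and Reg3a was 10 bases. The longest runs in the 25 pairs of promoters of different families, among the 8 members with a first RefSeq promoter, were 7 to 12 bases. No RefSeq promoter was found for Pla2g2a or Defa24.

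In vehicle mice the order of mRNA levels, as mean CPM per kb of exon, was Reg3b (10410), Reg3g (2402), Defa24 (1680), Lyz1 (1193), Itln1 (432), Mptx2 (177), Ang4 (158), Mmp7 (74.3), Reg3a (28.7) and Pla2g2a (24.0). The ranges of the 3 vehicle mice overlapped for Reg3g with Defa24, Defa24 with Lyz1, Itln1 with Mptx2, Mptx2 with Ang4, Ang4 with Mmp7 and Reg3a with Pla2g2a. Within each vehicle mouse, however, the order of these neighbours was the same but for Mptx2 and Ang4, which were reversed in mouse 3, and Reg3a and Pla2g2a, which were reversed in mouse 4. Reg3b stood above all other members in every vehicle mouse, and the 3 REG3 genes together took 1.203 to 2.35% of all counts on genes there. The 7 Paneth cell products together took 0.178 to 0.421%.

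All 3 REG3 lectins fell at 30 µg/kg. Reg3g, the family member best known for separating bacteria from the small intestinal surface, fell by 1.27 on the log2 scale (SE 0.28), and Reg3b and Reg3a fell by 0.94 (SE 0.25) and 0.875 (SE 0.22). Over 16741 genes edgeR gave Benjamini-Hochberg adjusted p-values of 0.00321, 0.0124 and 0.00831. To be called, a gene needed an adjusted p no higher than 0.05 together with a change of 1.5-fold or more. Of all genes tested 9.4% were called at this dose and 3.98% were called lower, and 3 of the 10 members were called, all 3 lower. The median log2 fold change was -0.26 over the 10 members and 0.02 over all genes.

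Reg3b mRNA was 10930, 8415 and 16330 CPM in vehicle mice 2, 3 and 4, and 6453, 4355 and 7821 CPM in mice 65, 67 and 68 at 30 µg/kg. All 3 treated mice lay below all 3 vehicle mice, though mouse 68 came close to mouse 3. Reg3g was 4944, 3156 and 7134 CPM in the same vehicle mice and 2326, 1478 and 2496 CPM at 30 µg/kg. The groups again did not overlap, with vehicle mouse 4 the highest of the 27 mice for all 3 lectins and mouse 67 the lowest. Reg3a was far scarcer, at 24.9, 19.5 and 26.6 CPM in vehicle mice and 15.04, 9.75 and 13.9 CPM at 30 µg/kg, and its groups did not overlap either. Over all genes, 13.3% had all 3 treated mice below all 3 vehicle mice at this dose. As a share of all counts the 3 lectins went from 1.72% ± 0.58 (SD, n = 3) in vehicle mice to 0.776% ± 0.225 (SD, n = 3), with an exact permutation p of 0.1 (two-sided), the smallest that 3 mice against 3 can give.

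**Figure D1:**
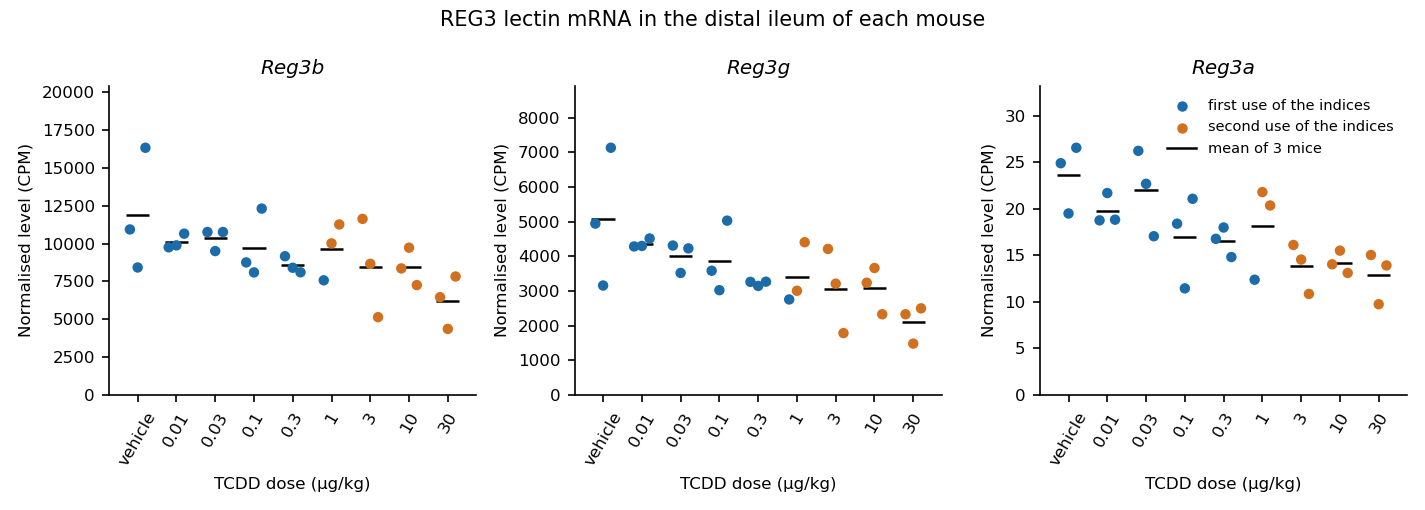
Normalised level of Reg3b, Reg3g and Reg3a (CPM, linear axis from 0) in each of the 27 mice against TCDD dose, with a bar at the mean of 3 mice and colour for the use of the library indices. At 30 µg/kg each lectin lies below all vehicle mice, with Reg3b at 4355 to 7821 CPM against 8415 to 16330 CPM.

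At each intermediate dose the mean level of each lectin lay between those of vehicle and of 30 µg/kg. Reg3g averaged 3067 ± 1222 CPM (SD, n = 3) at 3 µg/kg and 3075 ± 682 CPM (SD, n = 3) at 10 µg/kg, against 5078 ± 1993 CPM (SD, n = 3) in vehicle mice. Its log2 fold changes of -0.73 (SE 0.28, adjusted p = 0.221, edgeR) and -0.72 (SE 0.28, adjusted p = 0.166, edgeR) did not pass. Reg3a had all 3 mice below all vehicle mice at both doses, where 12.1% and 11.8% of genes did, and also at 0.3 µg/kg, at 14.8 to 18.0 CPM, where 8.49% did. At 3 and 10 µg/kg its log2 fold changes were -0.78 (SE 0.22, adjusted p = 0.0752, edgeR) and -0.73 (SE 0.22, adjusted p = 0.0627, edgeR), short of the limit. DESeq2 called Reg3a lower at both doses. Mouse 52 at 3 µg/kg was as low as the 30 µg/kg mice, at 5130 CPM of Reg3b and 1781 CPM of Reg3g, while mouse 50 of the same dose had 11630 and 4212 CPM.

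No member was called by edgeR at 1, 3 or 10 µg/kg, where 0.591%, 1.11% and 2.53% of all genes were called. At an unadjusted p under 0.05 there were 2 members at each of these doses, Reg3g and Pla2g2a at 1 µg/kg and Reg3a and Reg3g at 3 and 10 µg/kg. From 0.01 to 0.3 µg/kg edgeR called no gene at all, DESeq2 and limma-voom called no member, and 0, 0, 1 and 2 members had an unadjusted p under 0.05 in order of dose. The comparison of 0.3 µg/kg with vehicle lies within the first index use. There Reg3a (log2 fold change -0.52, adjusted p = 0.6) and Reg3g (-0.66, adjusted p = 0.618, both edgeR) were the 2 with an unadjusted p under 0.05.

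Over the whole series the 3 lectins declined with the rank of the dose. The slopes, in log2 units per step from vehicle (rank 0) to 30 µg/kg (rank 8), were -0.125 for Reg3g (SE 0.02, adjusted p = 0.000314), -0.10 for Reg3a (SE 0.02, adjusted p = 0.000209) and -0.08 for Reg3b (SE 0.02, adjusted p = 0.00526), all from edgeR. The trend was called for 26.2% of all genes and was downward for 12.8%, so many genes share it. None of the 7 Paneth cell products passed. In mice of the first index use alone the slopes of Reg3g, Reg3a and Reg3b were -0.16, -0.15 and -0.11 (adjusted p = 0.0938, 0.106 and 0.18, edgeR), and in those of the second use -0.25, -0.20 and -0.23 (adjusted p = 0.31, 0.195 and 0.285, edgeR). These fits were added after the data had been seen. They kept the direction of all 3 slopes, but none passed within either set of mice, where 0.144% and 1.44% of all genes did. With index use as a covariate over all 27 mice the slopes were -0.18 for Reg3g (adjusted p = 0.0436), -0.16 for Reg3a (adjusted p = 0.0246) and -0.14 for Reg3b (adjusted p = 0.0739, all edgeR), of which the first 2 passed, where 1.16% of all genes did.

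Across the 9 groups together, 9.53% of genes differed by edgeR's joint test, and no member did. Reg3a (adjusted p = 0.0541) and Reg3g (adjusted p = 0.0864) came closest, both with an unadjusted p under 0.05. DESeq2 called 2 members and limma-voom 0. The mice at 30 and 3 µg/kg all belonged to the second index use, and 0.89% of genes were called between these doses. No member was called there by edgeR, DESeq2 or limma-voom, and none had an unadjusted p under 0.05. The log2 differences were -0.55 for Reg3g (SE 0.28, adjusted p = 0.403, edgeR), -0.45 for Reg3b (SE 0.25, adjusted p = 0.455, edgeR) and -0.10 for Reg3a (SE 0.23, adjusted p = 0.9, edgeR).

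The calls at 30 µg/kg rested on few mice, and so did the share of all genes called. Mouse 65 differed from mice 67 and 68, with a chi-square per gene between libraries of 74.3 and 45.5. Mice 67 and 68 gave 18.8 with each other, and pairs of mice at the other doses gave at most 22.5. The TMM factor of mouse 65 (1.03) lay within the 0.95 to 1.068 of mice in the other groups. Those of mice 67 and 68 (0.885 and 0.882) lay below that range. By this factor mice 67 and 68, not mouse 65, were unlike the other groups. Without mouse 65 all 3 lectins were called (-1.38 for Reg3g, -0.996 for Reg3b and -1.03 for Reg3a, adjusted p = 0.00291, 0.013 and 0.00385), with 14.7% of all genes. Without mouse 67 only Reg3g was called, with 5.15% of all genes (log2 fold change -1.08, adjusted p = 0.0319), with Reg3b at -0.74 (adjusted p = 0.0962) and Reg3a at -0.71 (adjusted p = 0.069). Without vehicle mouse 4 Reg3b was not called (-0.64, adjusted p = 0.125), while Reg3g (-0.95) and Reg3a (-0.78) were, with 5.82% of all genes. With index use as a covariate Reg3a alone of the members was called (-1.64, adjusted p = 0.0161), with 2.88% of all genes, and Reg3b (-1.43, adjusted p = 0.0967) and Reg3g (-1.70, adjusted p = 0.0802) had larger estimates with larger errors. That fit separates index use from dose only through the 3 mice at 1 µg/kg. All these values are from edgeR.

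The ratio of Reg3g to Reg3b, the 2 abundant lectins, was lower at 30 µg/kg than in any vehicle mouse. There were 452, 375 and 437 Reg3g counts per 1000 Reg3b counts in vehicle mice 2, 3 and 4, and 360, 339 and 319 at 30 µg/kg. The 2 groups did not overlap (exact permutation p = 0.1, two-sided, the smallest possible). At 3 µg/kg the ratio was 362, 371 and 347, also below all vehicle mice with the same exact permutation p of 0.1, and at 10 µg/kg it was 387, 377 and 321, of which 1 mouse lay below all vehicle mice. No comparison of this size can reach a p of 0.05, and 88 comparisons of shares, summed levels and ratios with vehicle were made in this way.

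Markers of other cell types were also called at 30 µg/kg, where 9.4% of all genes were called and 3.98% were called lower. These lists are short, so 1 call in a list is near that share. Plasma, B and T cell markers had 3 of 8 genes called lower (Igha, Jchain and Mzb1) and summed levels of 1492 to 2058 CPM in vehicle mice and 470 to 863 CPM at 30 µg/kg, of which Igha, the heavy chain of the IgA that coats gut bacteria, made up the largest part. Stem and transit-amplifying cell markers had 3 of 7 called lower (Lgr5, Top2a and Pcna), with summed levels of 436 to 618 CPM in vehicle mice and 230 to 489 CPM at 30 µg/kg, Mki67 being the most abundant. Absorptive enterocyte markers had 3 of 10 called higher, among them Fabp1 and Slc10a2, and 1 lower (Fabp6), with sums of 19250 to 21610 CPM in vehicle mice and a wider 15420 to 34420 CPM at 30 µg/kg. Goblet cell markers had 1 of 8 called higher (Zg16) and 1 lower (Muc13), with sums of 26010 to 28390 and 32840 to 35310 CPM. Enteroendocrine and tuft cell markers had 2 of 7 called higher (Chga and Chgb), with sums of 114 to 134 and 216 to 228 CPM.

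Myeloid cell markers had 1 of 5 called lower (Itgam), where 3.98% of all genes were called lower. Their sums were 80.5 to 105.5 CPM in vehicle mice and 57.6 to 76.4 CPM at 30 µg/kg. Smooth muscle markers, Myh11 the most abundant, had log2 fold changes of 0.98 to 1.51 that did not pass (adjusted p = 0.196 to 0.438, edgeR), with sums of 25.0 to 109 and 36.2 to 345 CPM. Of the liver markers tested, Ttr was called higher (1 of 2), and Apob, which enterocytes also make, was not. None of these marker lists had a gene at 0 in every mouse. Their part in the REG3 result was not tested.

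Paneth cell products did not pass the test at 30 µg/kg or at any other dose. At 30 µg/kg 0 of the 7 were called by edgeR, DESeq2 or limma-voom and 0 had an unadjusted p under 0.05 by edgeR, with a median log2 fold change of -0.17 against 0.02 over all genes. Lyz1, the Paneth cell lysozyme (ENSMUSG00000069515, chromosome 10, 117287797 to 117292868, - strand), was 1610, 881 and 2031 CPM in vehicle mice and 1729, 987 and 1493 CPM at 30 µg/kg. The groups overlapped, the log2 fold change was -0.10 (SE 0.37, adjusted p = 0.881, edgeR) and its 95% interval ran from -0.82 to 0.61. Defa24, an alpha-defensin (ENSMUSG00000064213, chromosome 8, 21734494 to 21735471, + strand), was 748, 385 and 979 CPM in vehicle mice and 744, 396 and 566 CPM at 30 µg/kg (log2 fold change -0.31, SE 0.38, adjusted p = 0.626, edgeR). Mmp7 (ENSMUSG00000018623, chromosome 9, 7692090 to 7699585, + strand), the matrix metalloproteinase that cleaves mouse pro-alpha-defensins, was 76.2, 51.1 and 111 CPM in vehicle mice and 82.2, 42.8 and 62.4 CPM at 30 µg/kg (log2 fold change -0.35, SE 0.31, adjusted p = 0.486, edgeR). Within both groups the same mice were high and low for all 3 genes.

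Itln1, intelectin 1, a lectin that binds microbial glycans (ENSMUSG00000038209, chromosome 1, 171518122 to 171535294, - strand), was 524, 264 and 692 CPM in vehicle mice and 584, 302 and 429 CPM at 30 µg/kg (log2 fold change -0.17, SE 0.39, adjusted p = 0.805, edgeR). Mptx2, a pentraxin of Paneth cells (ENSMUSG00000079180, chromosome 1, 173274382 to 173277777, - strand), was 151, 65.7 and 204 CPM in vehicle mice and 222, 86.6 and 143 CPM at 30 µg/kg (log2 fold change 0.10, SE 0.41, adjusted p = 0.898, edgeR). Neither gene had groups that came apart at any dose. Pla2g2a, a secreted phospholipase A2 (ENSMUSG00000058908, chromosome 4, 138831857 to 138835186, + strand), is annotated as a polymorphic pseudogene, and C57BL/6 mice are known to carry a disrupted allele. Its mRNA was 24.2, 12.7 and 30.0 CPM in vehicle mice and 25.3, 14.9 and 17.2 CPM at 30 µg/kg (log2 fold change -0.22, SE 0.27, adjusted p = 0.622, edgeR). Its lowest group mean was at 1 µg/kg, where the log2 fold change was -0.71 (adjusted p = 0.227, edgeR).

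**Figure D2:**
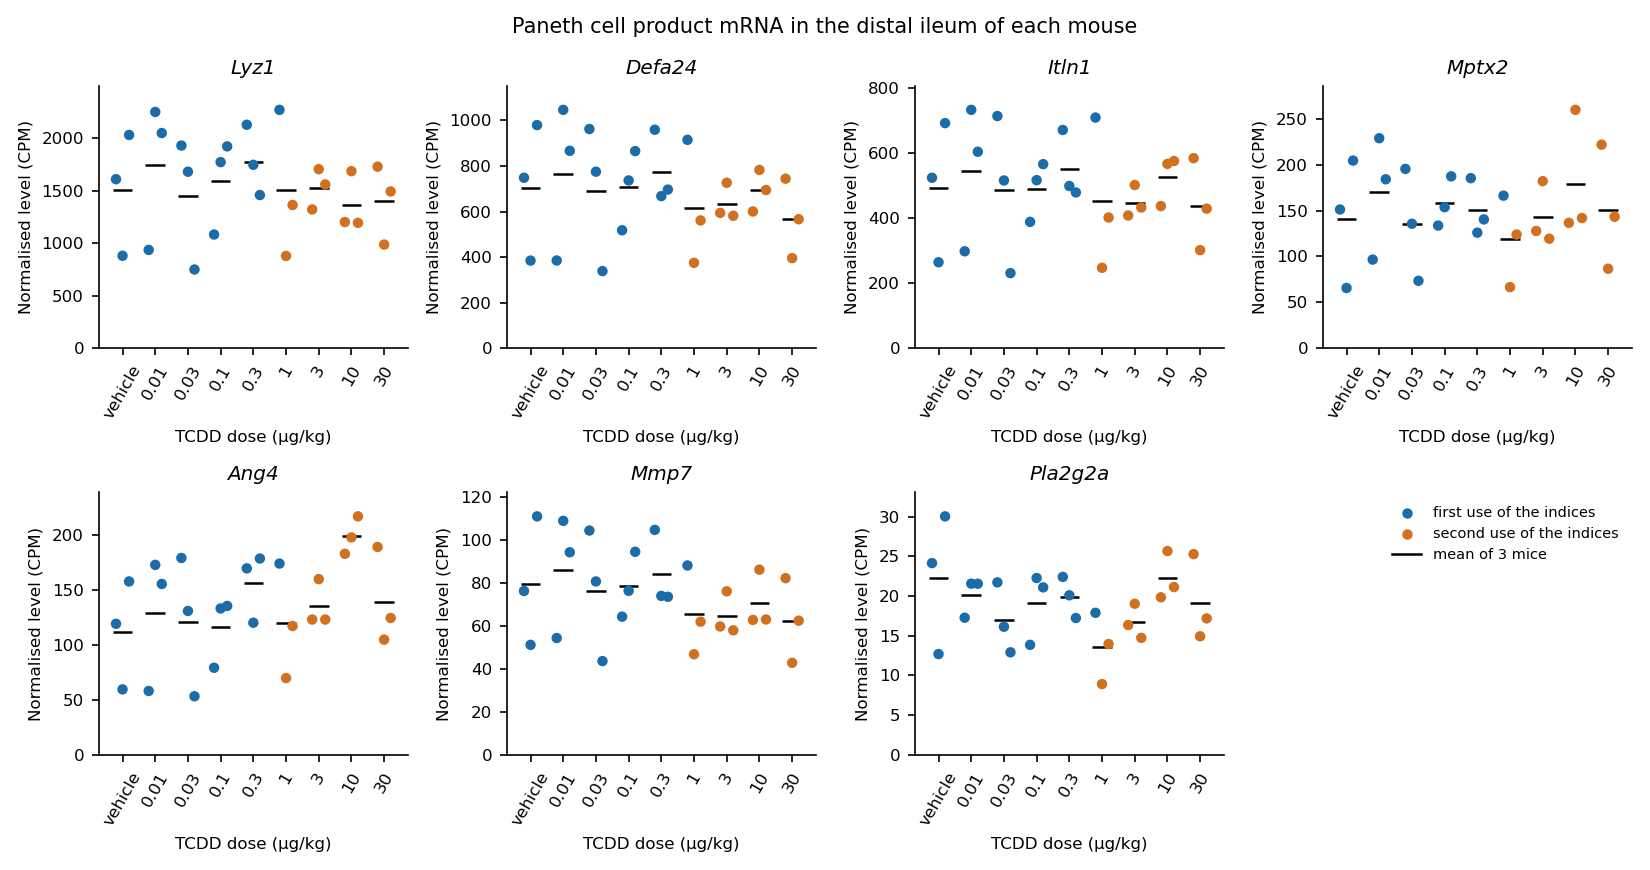
Normalised level (CPM, linear axes from 0) of the 7 Paneth cell products in each of the 27 mice against TCDD dose, with a bar at the mean of 3 mice and colour for the use of the library indices. Most groups span a wide range, for example 881 to 2031 CPM of Lyz1 in vehicle mice, and the Ang4 panel is the one with 3 mice above all vehicle mice, at 10 µg/kg.

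Sequence shared with relatives limits some of these counts. Of the 50-base stretches of the Defa24 transcripts 28.1% occur in other alpha-defensin transcripts, 18.0% of those of Mptx2 in Mptx1, 16.1% of those of Lyz1 in Lyz2, 7.36% of those of Mmp7 in AV064505, which overlaps it, and 4.70% of those of Ang4 in Ang5 and Ang2. Reads from such stretches may be left out or split between relatives. The Pla2g2a locus lies within Pla2g5 on the opposite strand.

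The spread of the Paneth cell products between mice was wide and shared. Within a dose the median coefficient of variation was 23.9% for Pla2g2a to 39.6% for Mptx2. Over the 27 mice the highest level was 2.59 times (Mmp7) to 4.07 times (Ang4) the lowest. Vehicle mouse 3, mouse 9 at 0.01 µg/kg, mouse 20 at 0.03 µg/kg, mouse 43 at 1 µg/kg and mouse 67 at 30 µg/kg were the low ones, with 749.9 to 987 CPM of Lyz1. The other mice of these doses ranged from 1364 to 2270 CPM. Low mice thus occurred in vehicle, low-dose and high-dose groups alike.

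Levels of the 7 products followed each other over mice. Log2 CPM of Lyz1 correlated with that of Defa24 (Pearson's r = 0.954, Spearman's rho = 0.922), Itln1 (r = 0.939, rho = 0.898), Mmp7 (r = 0.920, rho = 0.915) and Mptx2 (r = 0.864, rho = 0.816) over 27 mice. The adjusted permutation p-values of these r and rho, over 8 pairs tested, were all 1e-05, about the smallest that 100000 permutations give. Over all mice pooled, Lyz1 and Ang4 had the lowest values of the 8 pairs (r = 0.765, adjusted permutation p = 1e-05, and rho = 0.581, adjusted permutation p = 0.00209). As deviations from the mean of each dose group, Lyz1 and Ang4 had r = 0.926 and rho = 0.911 (adjusted permutation p = 1e-05 for both), and the lowest values were those of Reg3g with Reg3a (r = 0.691, adjusted permutation p = 0.00011, and rho = 0.653, adjusted permutation p = 0.00034). Without the 2 mice farthest from the median of Lyz1 the 5 values of r were 0.936, 0.912, 0.896, 0.812 and 0.663 in the same order, Ang4 last. Within the 16 mice of first index use r of Lyz1 with Defa24 was 0.979 and within the 11 of the second use 0.852, and with Ang4 it was 0.940 and 0.601. The last of these had adjusted permutation p-values of 0.051 for r and 0.137 for rho (0.482).

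The REG3 lectins formed a second set. Reg3b correlated with Reg3g (r = 0.966, rho = 0.907) and Reg3a (r = 0.813, rho = 0.807), and Reg3g with Reg3a (r = 0.814, rho = 0.760), with adjusted permutation p-values of 1e-05 to 2.29e-05 over 27 mice. Without the 2 mice farthest from the median r was 0.942, 0.721 and 0.731. Within the 2 index uses it was 0.969 and 0.970, 0.730 and 0.862, and 0.744 and 0.793 in the same order. Between the sets the association was weak. Spearman's rho over 27 mice ranged from -0.236 to 0.419 (median 0.146) in the 21 pairs of a lectin with a Paneth cell product, from 0.581 to 0.967 (median 0.827) in the 21 pairs of Paneth cell products and from 0.760 to 0.907 in the 3 pairs of lectins, given as a description. These levels come from the same libraries and share their scaling.

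**Figure D3:**
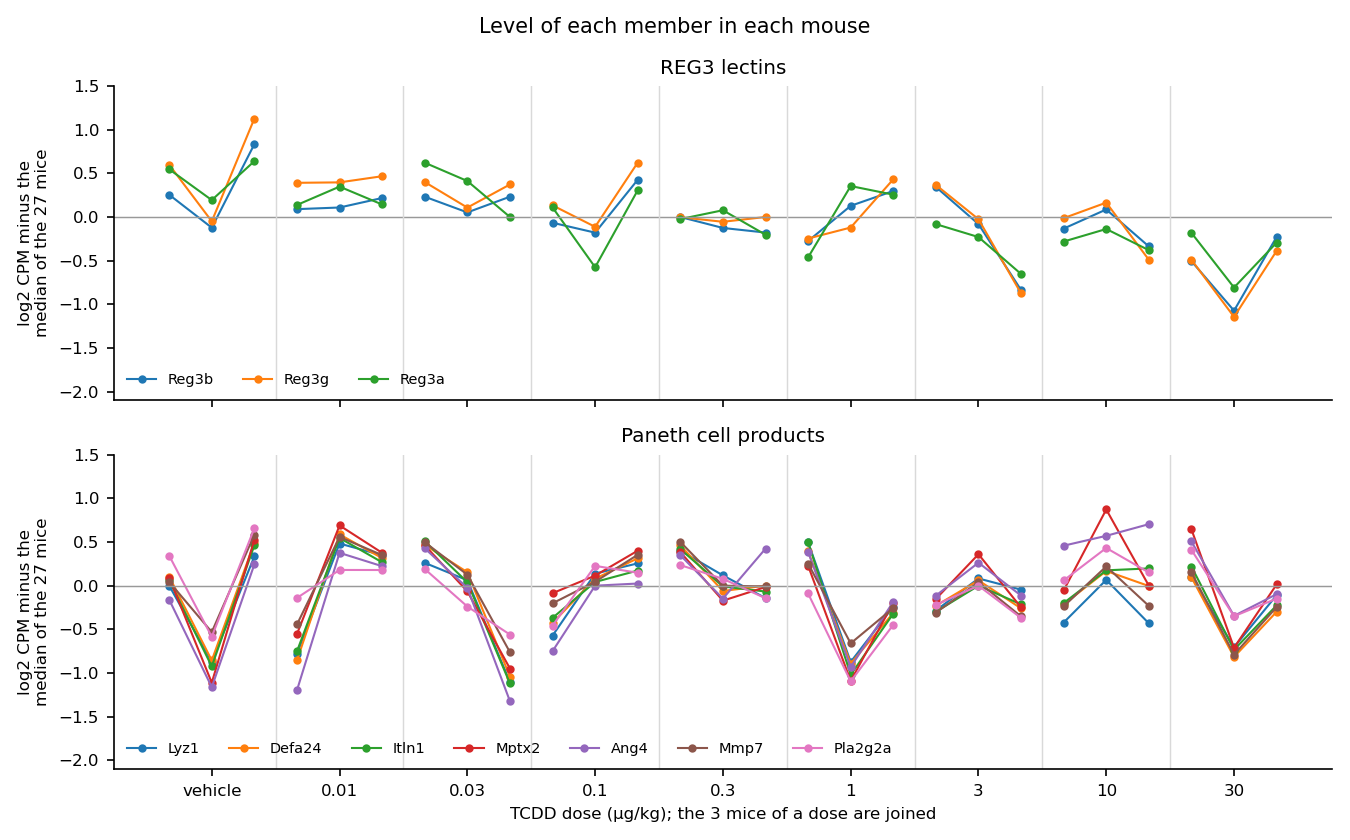
Level of each member in each of the 27 mice, as log2 CPM minus the median of that gene over all mice, with REG3 lectins above and Paneth cell products below. Lines join the 3 mice of a dose only to show which genes move together. The Paneth cell products of mice 3, 9, 20, 43 and 67 drop together, while Reg3b stays above its median in mice 9, 20 and 43.

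With the mean log2 level of the other Paneth cell products as a covariate, a fit added after the data had been seen, the errors of the Paneth cell products became smaller and the lectins kept their values. Reg3g, Reg3b and Reg3a were called at 30 µg/kg with log2 fold changes of -1.23, -0.91 and -0.865 (adjusted p = 0.0025, 0.0112 and 0.00687, edgeR). The fit was made separately for each member. The share of all genes called in it, at any dose or in the trend, is not given here, so its calls have no background beside them. Lyz1 was at 0.00 (SE 0.11, adjusted p = 0.994, edgeR) relative to the others. Mmp7 was lower by a log2 difference of -0.32 (SE 0.09, adjusted p = 0.0104, edgeR) and Defa24 by -0.23 (SE 0.08, adjusted p = 0.0338, edgeR), both past the adjusted p but under the limit of 1.5-fold. Such values are relative to the other Paneth cell products, not to vehicle alone. Pla2g2a was called lower at 1 µg/kg in this fit (-0.62, SE 0.14, adjusted p = 0.0241, edgeR).

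Ang4, a ribonuclease of the angiogenin family secreted by Paneth cells (ENSMUSG00000060615, chromosome 14, 51763878 to 51773590, - strand), was highest at 10 µg/kg. Its level was 183, 198 and 217 CPM in mice 57, 58 and 59, all above the 119, 59.6 and 158 CPM of vehicle mice. At 10 µg/kg 11.5% of all genes had all 3 mice above all vehicle mice. The log2 fold change was 0.83 (SE 0.40, adjusted p = 0.293, edgeR) and did not pass, with a wide spread among the vehicle mice. At 30 µg/kg Ang4 was 189, 105 and 125 CPM, within the range of vehicle mice but for mouse 65 (log2 fold change 0.315, SE 0.40, adjusted p = 0.643, edgeR).

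Counted against Lyz1 in the same library, Ang4 was steadier among controls. There were 74.1, 67.6 and 77.7 Ang4 counts per 1000 Lyz1 counts in vehicle mice, 152, 118 and 182 at 10 µg/kg and 109.5, 106 and 83.5 at 30 µg/kg. At 3 µg/kg they were 93.2, 93.9 and 79.0. At these 3 doses all 3 mice lay above all vehicle mice, each with an exact permutation p of 0.1 (two-sided). Mouse 36 at 0.3 µg/kg, of the first index use, had 122.5, while mice 33 and 35 of that dose had 79.8 and 68.8. In the fit with the level of the other Paneth cell products, Ang4 was called higher at 10 µg/kg (log2 difference 0.85, SE 0.15, adjusted p = 0.00136, edgeR). At 30 µg/kg it was 0.53 (SE 0.15, adjusted p = 0.0151, edgeR), under the 1.5-fold limit, and its trend was 0.09 per dose step (SE 0.02, adjusted p = 3.24e-05, edgeR). In the same fit Mmp7 and Defa24 had downward trends of -0.047 (SE 0.008, adjusted p = 3.41e-05, edgeR) and -0.024 (SE 0.007, adjusted p = 0.0148, edgeR) per dose step. The Ang4 pattern was seen before this fit was chosen, and mice at 10 and 30 µg/kg all belonged to the second index use. Lyz1 itself was at -0.35 in this fit at 10 µg/kg (SE 0.11, adjusted p = 0.0596, edgeR). Without the covariate it was at -0.15 (SE 0.37, adjusted p = 0.889, edgeR). The covariates of Lyz1, Mmp7 and Defa24 include Ang4, so their values in this fit depend in part on its level. Without the covariate Mmp7 and Defa24 were at -0.35 (SE 0.31) and -0.31 (SE 0.38) at 30 µg/kg. Their trends without it were -0.049 (SE 0.026) and -0.035 (SE 0.032) per dose step, and none of these passed. Values in this fit are relative to the other products and are not separate differences from vehicle. The part of Ang4 in them was not tested.

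The other products were also counted per 1000 Lyz1 counts. At 10 µg/kg Mptx2 was at 114 to 154 against 74.5 to 100.6 in vehicle mice, and Pla2g2a at 15.2 to 17.7 against 14.4 to 15, both above all vehicle mice. Pla2g2a lay below all vehicle mice at 0.1, 0.3, 1 and 3 µg/kg, with values of 7.88 to 12.8. Its 3 vehicle ratios lay close together (coefficient of variation 2.03%) though they rest on 173 to 434 counts of Pla2g2a. Small shifts therefore part the groups. Defa24 lay below all vehicle mice at 1 and 30 µg/kg, at 403 to 427 and 379 to 430 against 437 to 482, and Mmp7 at 3 µg/kg, at 37.1 to 45.1 against 47.3 to 58.0. Each of these had an exact permutation p of 0.1 (two-sided), the smallest possible. They are among 88 such comparisons, and no share over all genes is given here for any ratio to Lyz1, so they are a description only.

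**Figure D4:**
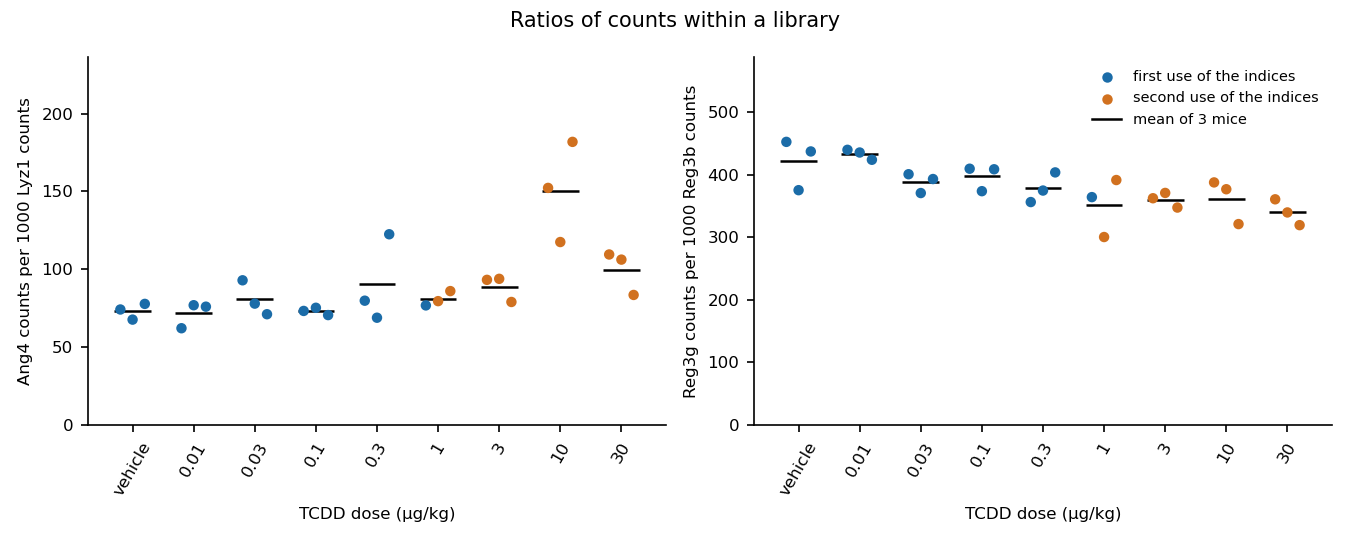
Ang4 counts per 1000 Lyz1 counts (left) and Reg3g counts per 1000 Reg3b counts (right) in each of the 27 mice against TCDD dose, on linear axes from 0, with a bar at the mean of 3 mice and colour for the use of the library indices. The Ang4 ratio is 118 to 182 at 10 µg/kg against 67.6 to 77.7 in vehicle mice, and the Reg3g ratio is 319 to 360 at 30 µg/kg against 375 to 452.

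A wider list of Paneth cell products was examined in the same fit. Of 23 further genes tested at 30 µg/kg, 1 was called, where 9.4% of all genes were. The median log2 fold change was -0.29 against 0.02 over all genes. A negative value was found in 21 of the 23, and the share of all genes with a negative value is not given here. The gene called was Pla2g5, a phospholipase A2 (log2 fold change -1.27, SE 0.36, adjusted p = 0.0176, edgeR), which overlaps Pla2g2a, and it was called neither with index use as a covariate nor in a fit of the 6 mice compared. The abundant alpha-defensins Defa20, Defa21, Defa22 and Defa30 had log2 fold changes of -0.17, -0.38, -0.01 and -0.13, and none passed (adjusted p = 0.592 to 0.986, edgeR).

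Genes of Paneth cell fate and the Wnt pathway had 4 of 24 called at 30 µg/kg, 3 of them lower. Of all genes 9.4% were called and 3.98% were called lower. Axin2, a negative feedback target of Wnt signalling, fell from 172 to 178 CPM in vehicle mice to 83.8 to 116 CPM at 30 µg/kg (log2 fold change -0.88, SE 0.15, adjusted p = 0.000349, edgeR). Sox9, the transcription factor needed for Paneth cell differentiation, fell by 0.66 on the log2 scale (SE 0.22, adjusted p = 0.0432, edgeR), and the Notch ligand Dll4 fell by 0.60 (SE 0.17, adjusted p = 0.0184, edgeR). Kit, a receptor tyrosine kinase, rose by 0.76 (SE 0.16, adjusted p = 0.0018, edgeR). The list's median log2 fold change was -0.02, against 0.02 over all genes. With index use as a covariate Axin2 alone was called lower and 1 gene higher.

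Of 22 other antimicrobial and acute-phase genes of the epithelium tested at 30 µg/kg, 10 were called lower, 1 higher and 11 neither, where 3.98% of all genes were called lower. The median log2 fold change was -1.07, against 0.02 over all genes. This list, like the others here, was chosen with earlier results of these data known. Its counts beside the share of all genes are thus a description only. Duox2, the epithelial oxidase that makes hydrogen peroxide, went from 734 to 1408 CPM in vehicle mice to 173 to 220 CPM (log2 fold change -2.44, SE 0.30, adjusted p = 9e-06, edgeR). Its maturation factor Duoxa2 fell by 3.52 (SE 0.39, adjusted p = 2e-06, edgeR), from 106 to 207 CPM in vehicle mice to 11.8 to 15.4 CPM. Fut2, which fucosylates the surface glycans that bacteria feed on, fell by 2.51 (SE 0.41, adjusted p = 0.000222, edgeR). Nos2, inducible nitric oxide synthase, fell by 1.05 (SE 0.19, adjusted p = 0.000501, edgeR). For each of these 4 genes the highest mouse at 30 µg/kg was under the lowest vehicle mouse.

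Sprr2a2 and Sprr2a3, 2 of the near-identical copies of small proline-rich protein 2A, fell by 2.62 (SE 0.28, adjusted p = 2e-06) and 1.85 (SE 0.28, adjusted p = 9.5e-05, both edgeR), and reads may be split between the copies. Saa1, Saa3, Retnlb and Sprr2a1 were the other 4 called lower, and the 1 gene called higher was Zg16, a goblet cell lectin that binds Gram-positive bacteria (log2 fold change 0.65, SE 0.12, adjusted p = 0.000738, edgeR). These 5 were named after their values had been seen. With scaling by library size only, Zg16 was not called. With index use as a covariate 5 of the 10 stayed called lower (Duox2, Duoxa2, Nos2, Sprr2a2 and Sprr2a3), Fut2 was not called, and Lypd8 was called lower in addition, while in a fit of the 6 mice compared 6 were called lower and 1 higher of 18 tested.

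**Figure D5:**
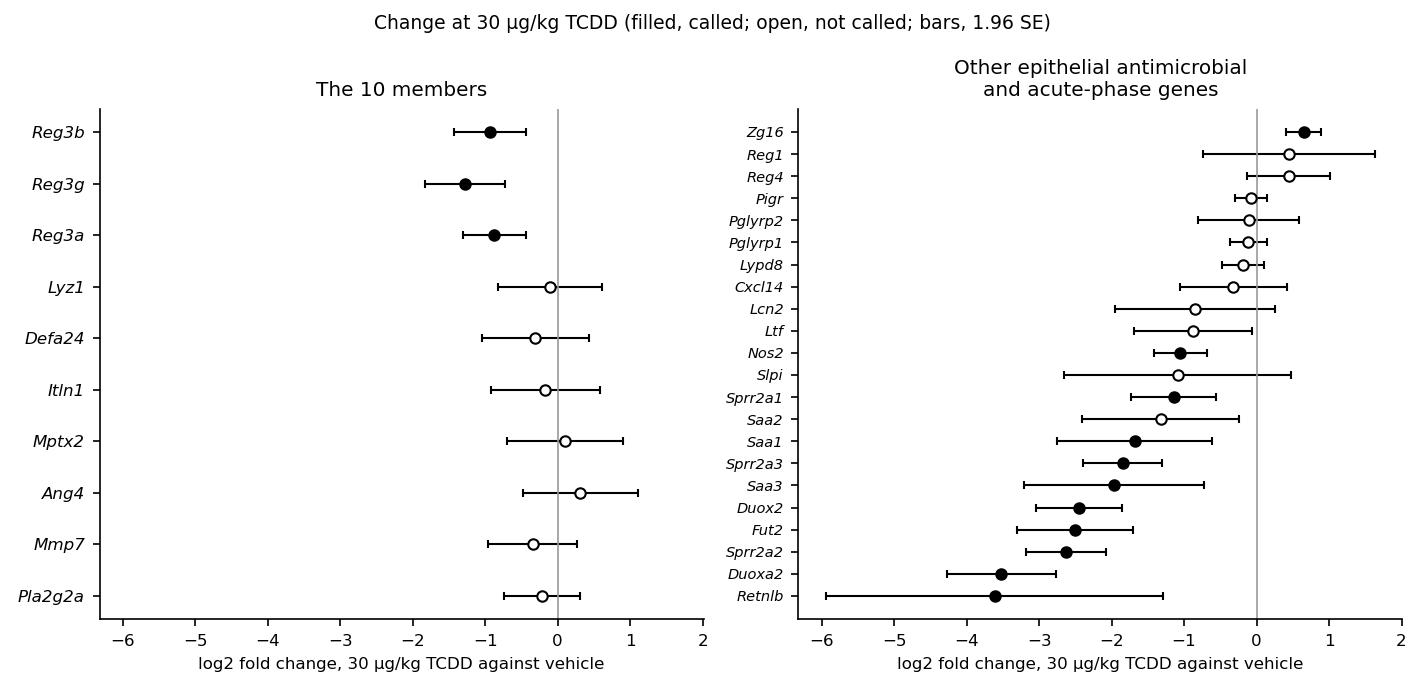
Log2 fold change at 30 µg/kg TCDD against vehicle (n = 3 each) for the 10 members (left) and 22 other epithelial antimicrobial and acute-phase genes (right), with bars for the 95% interval, filled symbols for called genes and open symbols for the rest. The 3 lectins and 10 of the genes on the right are called lower, while the bars of the 7 Paneth cell products cross 0. Members and the list on the right were chosen with earlier results of these data known.

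Genes of the signalling known to induce REG3 genes were examined next. Of 23 genes of the IL-22, STAT3 and MyD88 pathway tested, 6 were called lower and 1 higher. Of all genes 9.4% were called and 3.98% were called lower. A negative log2 fold change was found in 14 of the 23, so the list did not move as a whole. Its median was -0.41, against 0.02 over all genes. The STAT3-responsive genes Bcl3, Socs1 and Socs3 fell by 1.06 (SE 0.18, adjusted p = 0.000302), 1.58 (SE 0.28, adjusted p = 0.000402) and 0.88 (SE 0.24, adjusted p = 0.0126). The Toll-like receptors Tlr4 and Tlr2 fell by 1.31 (SE 0.30, adjusted p = 0.00362) and 1.08 (SE 0.34, adjusted p = 0.0297), all from edgeR. Without the fold limit 11 genes of this list were lower and 1 higher. The share of all genes without that limit is not given here, so these 2 counts have no background to be set against. With index use as a covariate Bcl3 alone was called lower.

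The genes whose level over the 27 mice ranked most like a member were described by Spearman's rho on log2 CPM over all genes tested, members left out. For Reg3b they were Gmds (0.871), Saa1 (0.869) and Plet1 (0.827), and for Reg3g they were Trp53i11 (0.914), Gmds (0.912) and Dmbt1 (0.905). Gmds encodes an enzyme of GDP-fucose synthesis and Dmbt1 a mucosal scavenger protein that binds bacteria. For Reg3a they were Eif2s2 (0.845), Ostc (0.842) and Pfkp (0.829). Alpha-defensins led for 4 of the Paneth cell products, with Defa32 nearest to Lyz1 (0.957), Defa30 nearest to Itln1 (0.954) and Mptx2 (0.927), and Defa20 nearest to Defa24 (0.958). Gm14851 was nearest to Mmp7 (0.957) and Mecom to Pla2g2a (0.835). For Ang4 the nearest were Cd24a (0.916), a surface glycoprotein high on Paneth cells, Clps (0.897) and Actn1 (0.854). Cd24a had a log2 fold change of 0.72 at 10 µg/kg (adjusted p = 0.0185, edgeR), where Ang4 was highest and 2.53% of all genes were called. Cd24a was picked by its likeness to Ang4 in these same mice, so its rise is not separate evidence on Ang4.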

How the data were processed

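RNA-Seq of ileal epithelial scrapings from 27 mice, with 12.26 to 17.14 M counted reads each, was examined. Counts per gene were made and deposited by the authors, who per the labels used FastQC 0.11.3, Trimmomatic 0.33, TopHat2 2.1.0, SAMtools 1.2.0, HTSeq 0.6.1 and DESeq with mouse genome GRCm38. Whether counting used strand is not given in the sources used here. Gene symbols came from GENCODE M21. Rows that name no gene were left out, and of the reads on genes, without a feature or ambiguous, 44.48 to 49.52% had no feature and 0.61 to 1.02% were ambiguous.

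Counts were tested with edgeR 4.0.16 (R 4.3.3) by its quasi-likelihood test, with TMM scaling, the filter of filterByExpr (16741 genes kept) and 9 groups in 1 fit, with p-values adjusted by Benjamini-Hochberg over all genes. DESeq2 1.42.0, limma 3.58.1 (voom), other scaling and filters, index use as a covariate and leaving out each mouse were alternatives. Figures used Python 3.11.15 and matplotlib 3.10.9. Each mouse was 1 sample, and no pair of mice of a dose held the same library (chi-square per gene of at least 6.99 over 27 pairs). In simulated counts for 30 µg/kg against vehicle, 92 of 100 genes changed 4-fold and 68 of 100 changed 2-fold were called, with 4 false calls among 16541 genes.

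Members and lists were chosen with earlier results of these data known. All members were named, with called genes of the smaller lists and up to 6 of the longest by p-value. Intervals and errors cover the spread between mice. Some called genes of the lists are not reported here by name.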

Additional observations from a re-analysis of the deposited data

How the results depend on the processing

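No paired analysis was possible because replicate numbers were given in accession order and pair no mice, so no replicate block could be fitted. The number of members called at 30 µg/kg was 3, and it was 1 with index use as a covariate, 1 in a fit of the 6 mice compared and 1 to 3 when each mouse was left out (1 without replicate 2 at 30 µg/kg, mouse 67). At 3 µg/kg it was 0, and 1 with DESeq2, with no filter and with 6 mice, and 0 to 1 with a mouse left out (1 without replicate 2 at 0.1, replicate 1 at 1 or replicate 1 at 30 µg/kg). At 10 µg/kg it was 0, and 1 with DESeq2, no filter and 6 mice, 2 with the level of the other Paneth cell products as covariate and 0 to 1 with a mouse left out (1 without any of these 3 mice or without replicate 2 at 30 µg/kg). At 1 µg/kg that covariate gave 1 in place of 0. In the trend it gave 6 in place of 3, the fits within each index use gave 0 and 0, and leaving out a mouse gave 3 to 3. Among the 9 groups 0 became 2 with DESeq2 and with library size only, 3 with no filter and with the Paneth covariate, and 0 to 2 with a mouse left out (2 without vehicle replicate 2, and 1 without replicate 3 at 0.03, replicates 2 or 3 at 0.1, replicates 1 or 2 at 1, replicate 1 at 3 or replicate 1 at 30 µg/kg). Of the genes in the 4 further lists 23 were called, 9 with index use as a covariate, 13 with 6 mice and 15 to 25 with a mouse left out (15 without vehicle replicate 3). No member was called at 0.01 to 0.3 µg/kg or at 30 against 3 µg/kg under any alternative run. The cause of these differences was not tested.

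Log2 fold changes of Paneth cell products at 30 µg/kg changed sign. With index use as a covariate they were 0.91 for Lyz1, 0.35 for Mmp7, 0.42 for Pla2g2a, 0.955 for Itln1 and 0.66 for Defa24, and Lyz1 was 0.001 with the Paneth covariate. Ang4 and Mptx2, higher in both fits, went from 0.315 to 1.21 and from 0.10 to 0.90 with index use as a covariate. None of the 7 products was called in that fit. It separates index use from dose only through the 3 mice at 1 µg/kg. There Lyz1 was 2270 CPM in mouse 41, of the first index use, and 879 and 1364 CPM in mice 43 and 44. With each mouse left out in turn the log2 fold changes ran from -0.40 to 0.17 for Lyz1, -0.015 to 0.64 for Ang4, -0.53 to 0.055 for Pla2g2a, -0.50 to 0.15 for Itln1, -0.32 to 0.47 for Mptx2 and -0.63 to 0.005 for Defa24. With scaling by library size only the median of all genes at 30 µg/kg shifted from 0.007 to -0.12 on the log2 scale, and the calls went from 908 higher and 666 lower to 604 higher and 1048 lower. The 3 lectins stayed called, at -1.39 for Reg3g, -1.06 for Reg3b and -0.99 for Reg3a.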
